A study of Mus musculus with 12 samples.

Results

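Apolipoproteins are the proteins that coat lipid particles in plasma and direct where those particles go. The genes described here are 10 that the liver is known to express, Apoa1, Apoa2, Apoa4, Apoa5, Apob, Apoc1, Apoc3, Apoe, Apoh and Apom. They were found by symbol in a count table of 53599 genes, and all 10 were among the 16210 genes with enough counts to be tested. Their order of loss was followed across 4 groups of sorted mouse liver cells, in which hepatocytes labelled at the start acquire biliary surface markers.

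RNA of 12 libraries was sequenced, 3 from each group. All mice were WT by label and carried Cre recombinase delivered by AAV8-TBG-Cre, whose TBG promoter acts in hepatocytes. From 1 week after the injection they ate 3,5-diethoxycarbonyl-1,4-dihydrocollidine (DDC) at 0.1% of the diet, an agent that damages bile ducts, and did so for 8 weeks. Labelled cells were sorted as early (EGFP+ Cd24- Epcam-), intermediate (EGFP+ Cd24+ Epcam-) and full (EGFP+ Cd24+ Epcam+), and unlabelled biliary epithelial cells (BEC) as EGFP- Epcam+. No group came from uninjured liver, so early is a labelled cell of an injured liver without these biliary markers. The sources used here give neither the reporter allele nor how many animals each library holds, so the p-values measure only the spread between these libraries, which may be technical.

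In the liver, Apob forms the backbone of very low density lipoprotein (VLDL) and stays with a particle for life, whereas the small exchangeable apolipoproteins move between particles. Apoa1 and Apoa2 are the main proteins of high density lipoprotein (HDL), Apoa5 and Apoc3 act in opposite directions on the clearance of triglyceride, and Apoe is the ligand by which remnant particles are taken up again. Hepatocytes make nearly all of these proteins in quantity, while macrophages and several epithelia are also known to make Apoe.

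Apoa1, Apoc3, Apoa4 and Apoa5 lie side by side on chromosome 9, between Sik3 and Zpr1, and Apoc1 and Apoe on chromosome 7, between Apoc4 and Tomm40. The other 4 genes lie apart from these clusters and from one another, on chromosomes 1, 11, 12 and 17. The RefSeq promoter table (GRCm38.p6) matched 8 of the 10 genes, all but Apoc1 and Apoc3. The 250 bases before the start site are shown for 4 genes that the results turn on, namely Apoa5, which kept the least of its early level in intermediate cells, its cluster partner Apoa1, which fell most at the second step, and Apob and Apoe, which kept the most. Each runs 5′ to 3′ on the strand of its gene, with a TATAAA match in capitals, and is the first start site listed for that gene.
Apoa5 (GRCm38.p6, chr9:46268358-46268607, plus strand): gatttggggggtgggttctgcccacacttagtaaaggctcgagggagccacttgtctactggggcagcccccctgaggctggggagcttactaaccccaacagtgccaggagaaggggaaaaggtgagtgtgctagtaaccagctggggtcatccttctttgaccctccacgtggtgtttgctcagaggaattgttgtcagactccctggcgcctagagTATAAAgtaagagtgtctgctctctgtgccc
Apoa1 (GRCm38.p6, chr9:46228380-46228629, plus strand): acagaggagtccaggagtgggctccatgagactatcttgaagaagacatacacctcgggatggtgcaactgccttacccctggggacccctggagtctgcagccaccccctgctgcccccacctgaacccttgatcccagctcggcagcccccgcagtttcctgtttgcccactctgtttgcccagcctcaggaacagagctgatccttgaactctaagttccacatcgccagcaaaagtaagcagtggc
Apob (GRCm38.p6, chr12:7977427-7977676, plus strand): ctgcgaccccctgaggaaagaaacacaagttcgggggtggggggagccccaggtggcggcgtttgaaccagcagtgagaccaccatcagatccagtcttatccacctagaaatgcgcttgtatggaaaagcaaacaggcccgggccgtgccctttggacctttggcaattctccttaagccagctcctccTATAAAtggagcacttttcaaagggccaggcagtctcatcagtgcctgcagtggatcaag
Apoe (GRCm38.p6, chr7:19699189-19699438, minus strand): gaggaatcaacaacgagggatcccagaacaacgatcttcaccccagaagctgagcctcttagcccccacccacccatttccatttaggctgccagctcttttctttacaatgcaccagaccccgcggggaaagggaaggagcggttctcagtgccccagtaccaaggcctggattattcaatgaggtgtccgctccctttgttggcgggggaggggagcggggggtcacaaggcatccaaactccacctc

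TATAAA, the core of the TATA box, was searched on both strands and was found in 12.4% of 32851 promoter windows of the same length. It lay 31 bases before the start in Apoa5 and 60 bases before it in Apob, and there was no match in the windows of Apoa1 and Apoe shown. Of the other genes, Apoa2 had a match 212 bases before its first-listed start, and Apoa4, Apoh and Apom had none. A further start site listed for Apoe had TATAAA 96 bases before it on the strand of the gene and 100 bases before it on the opposite strand, in overlapping letters. GTTAAT, the core of an HNF1 site, present in 6.43% of windows, was found 172 bases before another listed start of Apoe, on the opposite strand, and in no other window of the 8 genes. CAAAGTCCA, a site of HNF4, and TTGCGCAA, a site of C/EBP, were in none of their windows, against 0.384% and 0.164% of all windows. Both the gene that kept the least in intermediate and the one that kept the most thus carried TATAAA, and these matches are a description of letters only.

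The libraries held between 15112893 and 19731887 counts. The cells matched their labels by known markers. Summed over 9 hepatocyte markers, all detected in every group, levels were 89289 ± 2390 (SD, n = 3) CPM (counts relative to each library's TMM-scaled total) in early, 15058 ± 2212 in intermediate, 3087 ± 512 in full and 1974 ± 306 in BEC. Summed over 10 biliary markers, they rose from 1339 ± 507 in early to 10893 ± 1542, 13833 ± 1855 and 16169 ± 2091 CPM in the same order. Mitochondrial genes took 7.63 ± 3.31% of counts in early, including 11.4% in early replicate 2, and 2.33% to 4.27% on average in the other groups. In bulk samples, fewer cells of a type and less RNA per cell cannot be told apart, and this touches every level given for the apolipoproteins.

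Together the 10 genes took 3.88 ± 0.318% (SD, n = 3) of all counts in early, 1.54 ± 0.0558% in intermediate, 0.577 ± 0.0602% in full and 0.335 ± 0.0552% in BEC. No library of one group overlapped the next. The 2-sided exact permutation test gave p = 0.1 for each adjacent pair, which is the smallest value that 3 against 3 can give, and p = 0.1 after adjustment over the 3 pairs. Apoe alone supplied much of this share, and without it the other 9 genes took 1.87 ± 0.109%, 0.618 ± 0.0893%, 0.142 ± 0.0335% and 0.0781 ± 0.0128%.

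Per base of transcript, Apoe was the most abundant of the 10 in every group. On the scale of CPM per kilobase of exon, early cells had Apoe at 14246 ± 2674, Apoa1 at 7200 ± 177, Apoa2 at 5265 ± 195, Apoc1 at 3026 ± 184, Apoc3 at 1627 ± 11.5 and Apoh at 1252 ± 140 (SD, n = 3). Below these 6, Apoa5 at 629 ± 56.9 and Apob at 612 ± 109 could not be ordered, since their libraries overlapped, and Apom at 310 ± 50.5 and Apoa4 at 163 ± 20.7 came last. BEC kept Apoe first, at 999 ± 171 CPM per kilobase, ahead of Apoc1 at 94.9 ± 30.5, Apoa1 at 67.1 ± 31.5 and Apoa2 at 57.1 ± 24.7, which overlapped one another. Apob, the longest transcript of the set, was at 64.1 ± 16.8 CPM per kilobase in full, where its libraries overlapped those of Apoa1 and Apoa2, and at 29.2 ± 2.26 in BEC, below both. Lengths were those of GENCODE M21 exons.

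**Figure D1:**
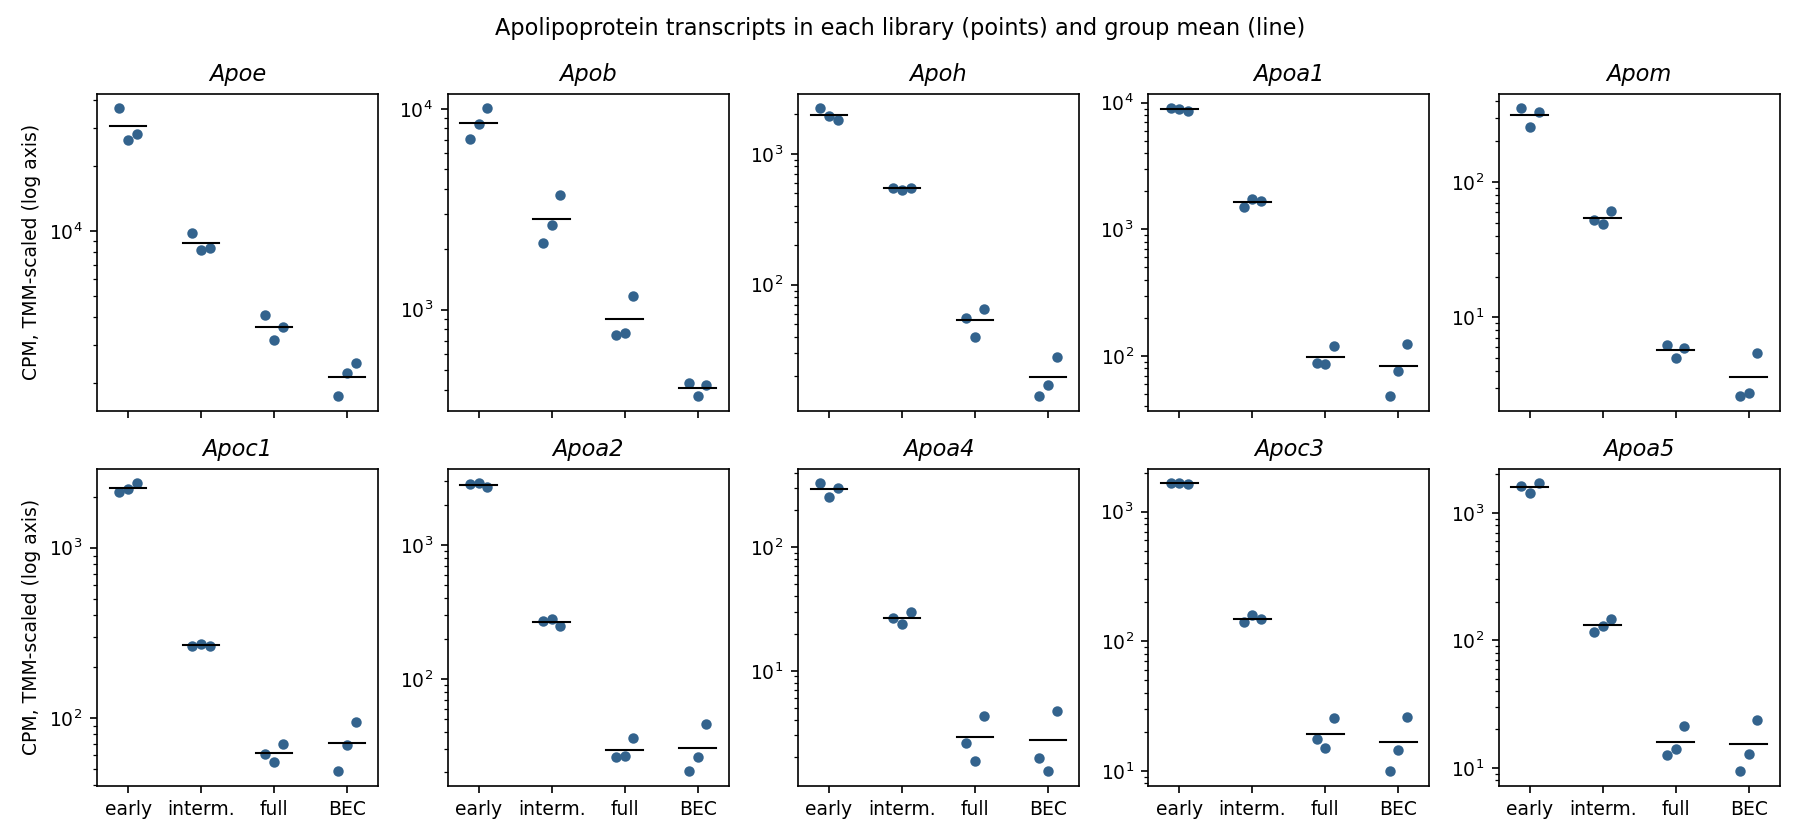
Each panel shows 1 apolipoprotein, with TMM-scaled CPM on a log axis, the 12 libraries as points (replicates 1 to 3 from left to right within a group) and the group mean as a line. Every gene steps down from early to intermediate and again to full. For 7 of the 10 the full and BEC points overlap, and the share of all genes that overlap was not counted.

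At the step from early to intermediate, all 10 genes were lower. edgeR's quasi-likelihood test with Benjamini-Hochberg adjustment over all tested genes called 10 of 10 lower, against 25.7% of all genes called lower and 28.7% called higher. No intermediate library reached the lowest early library for any of them, but the share of all genes that separate in this way was not counted. The median log2 fold change over the 10 was -2.81, against 0.06 over all genes tested. They differed in how far they fell.

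The genes that kept the least of their early level in intermediate were Apoa5, Apoc3, Apoa4 and Apoa2. None of these 4 was called for a larger log2 fall at this step than at the next. Apoa5, which promotes lipolysis of triglyceride-rich particles, stood at 1616, 1430 and 1713 CPM in the early libraries and at 116, 130 and 148 CPM in the intermediate ones. Intermediate cells thus kept 8.27 ± 1.01% of the early level, a log2 fold change of -3.60 (SE 0.28, adjusted p = 1.93e-07 by edgeR's quasi-likelihood test). Apoc3, an inhibitor of that lipolysis, fell from 1650 ± 11.6 to 149 ± 8.96 CPM and kept 9.02 ± 0.543%. Apoa4, a lipid-binding protein of intestine and liver, kept 9.05 ± 1.06%, and Apoa2, the second protein of HDL, kept 9.43 ± 0.600%. Neighbours within this order overlapped, so these 4 genes cannot be ranked among themselves. They are not all of 1 cluster, since Apoa2 lies on chromosome 1.

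Apoc1, a small exchangeable protein that inhibits lipoprotein uptake, came next, with 263, 272 and 264 CPM in intermediate cells against 2137, 2214 and 2403 CPM in early cells. It kept 11.8 ± 0.217%, above the range of Apoa2 and below that of Apom. Apom, the carrier of sphingosine-1-phosphate in HDL, kept 17.2 ± 2.09%, and Apoa1, the main protein of HDL, 18.4 ± 1.43%, and their ranges overlapped. Apoa1 had 1492, 1732 and 1689 CPM in intermediate cells after 9098, 8937 and 8664 CPM in early cells. Its log2 fold change was -2.44 (SE 0.26, edgeR adjusted p = 3.43e-06).

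Apoh, Apoe and Apob fell least at this step. Apoh, a phospholipid-binding plasma protein also called beta-2 glycoprotein I, kept 27.2 ± 0.694% of its early level, with 553, 528 and 551 CPM in the intermediate libraries after 2242, 1940 and 1805 CPM in the early ones. Apoe kept 28.8 ± 2.96%, moving from 36967, 26257 and 28148 CPM to 9808, 8162 and 8350 CPM. Apob kept 33.3 ± 9.62%, with 7061, 8418 and 10098 CPM in early and 2136, 2643 and 3741 CPM in intermediate cells, so that replicate 3 was the highest in both groups. Adjacent genes among these 3 overlapped, while all 3 lay above every library of Apoa1. Their log2 fold changes were -1.88 for Apoh, -1.80 for Apoe and -1.59 for Apob (edgeR adjusted p = 7.80e-06, 1.68e-06 and 3.64e-05). Scaled by total counts, these became -1.21, -1.13 and -0.93, all still called, and the percents kept by the 10 genes in intermediate ran from 13.1 ± 1.46% (Apoa5) to 52.6% (Apob, whose 3 libraries ranged from 39.9 to 68.5%), with Apoh at 43.2 ± 0.998% and Apoe at 45.7 ± 4.96%.

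**Figure D2:**
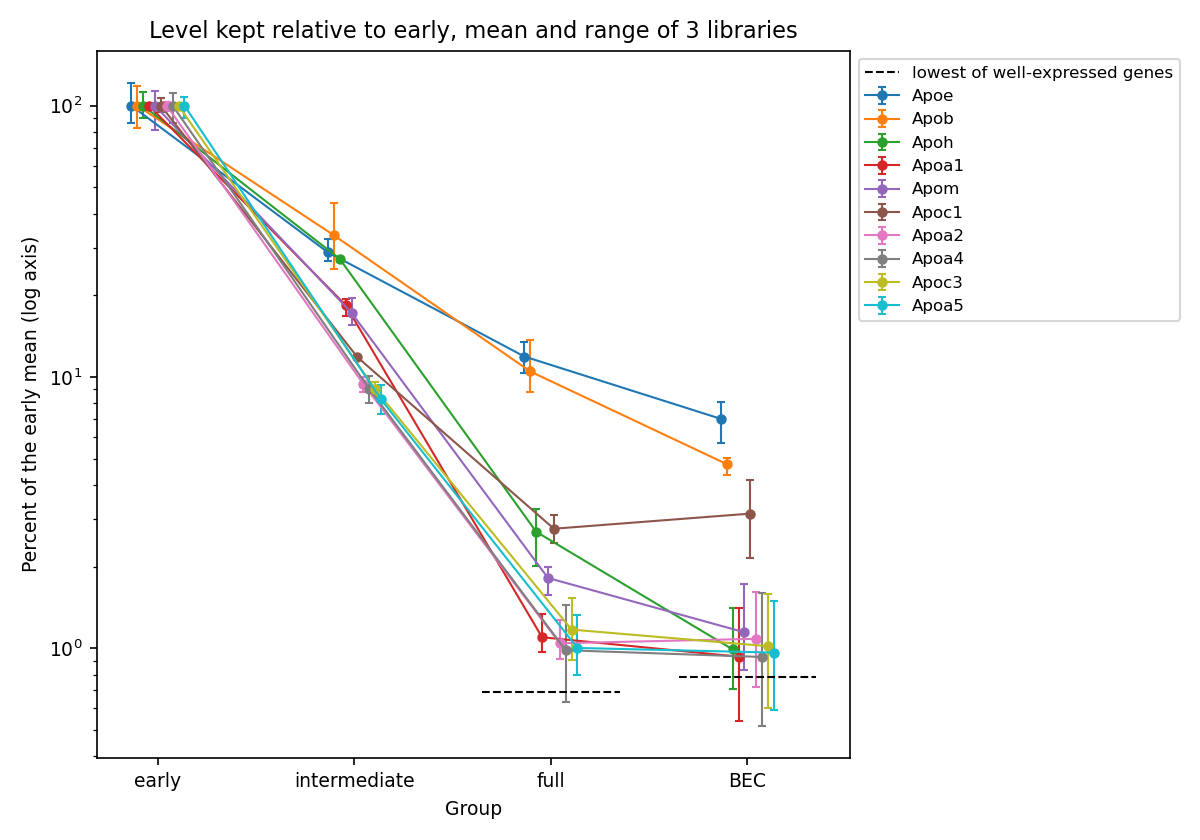
The mean level of each gene as a percent of its early mean is plotted on a log axis for the 4 groups, with bars for the range of the 3 libraries and dashes for the lowest of 2411 well-expressed genes in full (0.691%) and BEC (0.783%). Apoe, Apob and Apoc1 remain above the other 7 genes in BEC, which sit together near 1%.

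At the second step, from intermediate to full, the 10 genes fell again and their order changed. edgeR called 10 of 10 lower, against 19.8% of all genes called lower and 20.8% called higher. No full library reached the lowest intermediate library for any of the 10, and the share of all genes that do so was again not counted. The median log2 fold change was -3.11, against 0.01 over all genes. Both steps use the same intermediate libraries, so their fold changes are not independent.

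The HDL gene Apoa1 fell most, from the 1492 to 1732 CPM of the intermediate libraries to 87.8, 86.6 and 119 CPM in the full ones. This is a log2 fold change of -4.07 (SE 0.28, edgeR adjusted p = 1.96e-07). Apoh, among the genes that fell least at the first step, dropped to 56.1, 40.0 and 64.8 CPM, a log2 fold change of -3.34 (SE 0.23, edgeR adjusted p = 2.11e-07). Apom fell by 3.25, Apoa4 by 3.20, Apoa2 by 3.18, Apoa5 by 3.04 and Apoc3 by 2.94 on the log2 scale. Apoc1 fell by 2.10, to 61.3, 55.0 and 70.0 CPM. Apob and Apoe again fell least, by 1.67 to 750, 767 and 1163 CPM and by 1.28 to 4088, 3150 and 3631 CPM.

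Whether a gene changed by a different log2 amount at the 2 steps was tested as a contrast in the same fit, and 3 of the 10 were called, 2 of them with the larger fall at the second step. Of all genes, 10.8% were called in that direction and 5.64% in the other. Apoa1 fell by 1.62 more at the second step on the log2 scale (SE 0.42, edgeR adjusted p = 0.0179) and Apoh by 1.47 more (SE 0.36, edgeR adjusted p = 0.0138). Apoc1 fell more at the first step, with a difference of 0.98 (SE 0.32, edgeR adjusted p = 0.0496). The Apoc1 call was lost when libraries were scaled by total counts (0.52, edgeR adjusted p = 0.212) and in 10 of the 12 fits that each left out 1 library, with adjusted p up to 0.134. The Apoa1 call was lost without intermediate replicate 2 (-1.54, edgeR adjusted p = 0.0746) or intermediate replicate 3 (-1.59, edgeR adjusted p = 0.0562), and either fit left 1 call of the 3, that of Apoh. For Apoa5 the difference was 0.55, with a 95% confidence interval from -0.43 to 1.54, and for Apob it was -0.08, from -0.89 to 0.72, so these data do not fix at which step either fell more. Apom, at -0.71 (edgeR adjusted p = 0.185), was called for a larger fall at the second step on total counts (-1.17, adjusted p = 0.0147) and without a filter on low counts (-0.74, adjusted p = 0.0381).

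**Figure D3:**
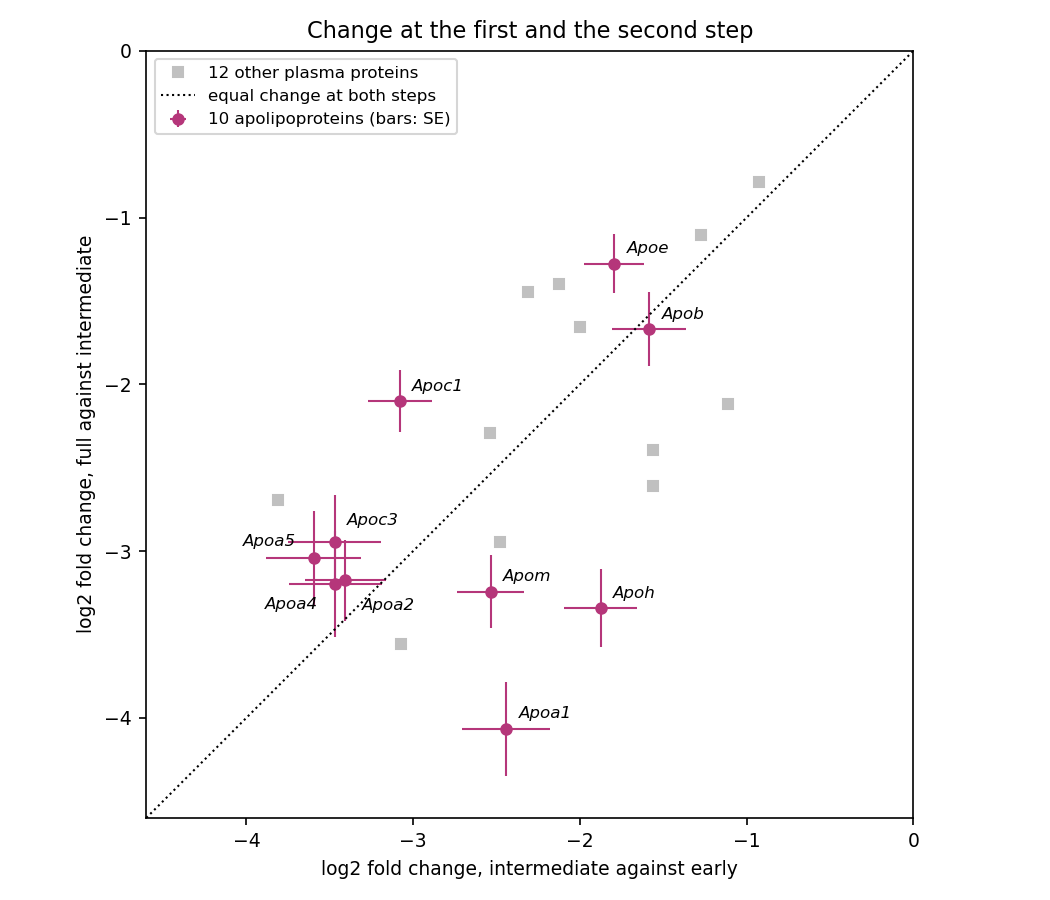
The log2 fold change at the first step is on the horizontal axis and that at the second step on the vertical axis, for the 10 apolipoproteins (points with standard errors) and 12 other plasma proteins (squares), with a dotted line of equal change. Apoa1 and Apoh lie below the line, Apoc1 above it, and Apoe and Apob near the upper right.

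Within the chromosome 9 cluster, Apoa5, Apoc3 and Apoa4 overlapped in the percent kept in intermediate and in full, and Apoa1 departed from them in intermediate. The count of Apoa1 divided by that of Apoc3 was 5.39 ± 0.0951 in early and 11.0 ± 0.419 in intermediate, and then 5.15 ± 0.590 in full and 4.97 ± 0.249 in BEC (each SD of 3 libraries). The intermediate libraries, at 10.6 to 11.4, overlapped no other group. Apoa1 over Apoa2, its partner in HDL on another chromosome, followed the same course, at 3.15 ± 0.0723, 6.16 ± 0.618, 3.31 ± 0.0765 and 2.67 ± 0.284. On chromosome 7, Apoe over Apoc1 was 13.6 ± 3.18 in early, 33.0 ± 3.85 in intermediate, 58.6 ± 7.50 in full and 31.3 ± 4.85 in BEC. These ratios lie within a library and so need no scaling factor.

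The make-up of the apolipoprotein counts shifted accordingly. Apoe made up 51.5 ± 5.16% of the counts of the 10 genes in early, 59.7 ± 5.72% in intermediate, 75.5 ± 4.70% in full and 76.6 ± 2.13% in BEC. Apoa1 took 15.2 ± 1.18%, 11.2 ± 1.17%, 2.04 ± 0.299% and 2.88 ± 0.914%. Apob took 14.7 ± 3.33%, 19.3 ± 5.10%, 18.6 ± 3.97% and 14.9 ± 3.14%, with overlap between neighbouring groups. Apob counts per Apoa1 count were 0.961 ± 0.195 in early, 1.72 ± 0.428 in intermediate, 9.07 ± 0.645 in full and 5.73 ± 2.88 in BEC, where they ranged from 3.36 to 8.94.

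**Figure D4:**
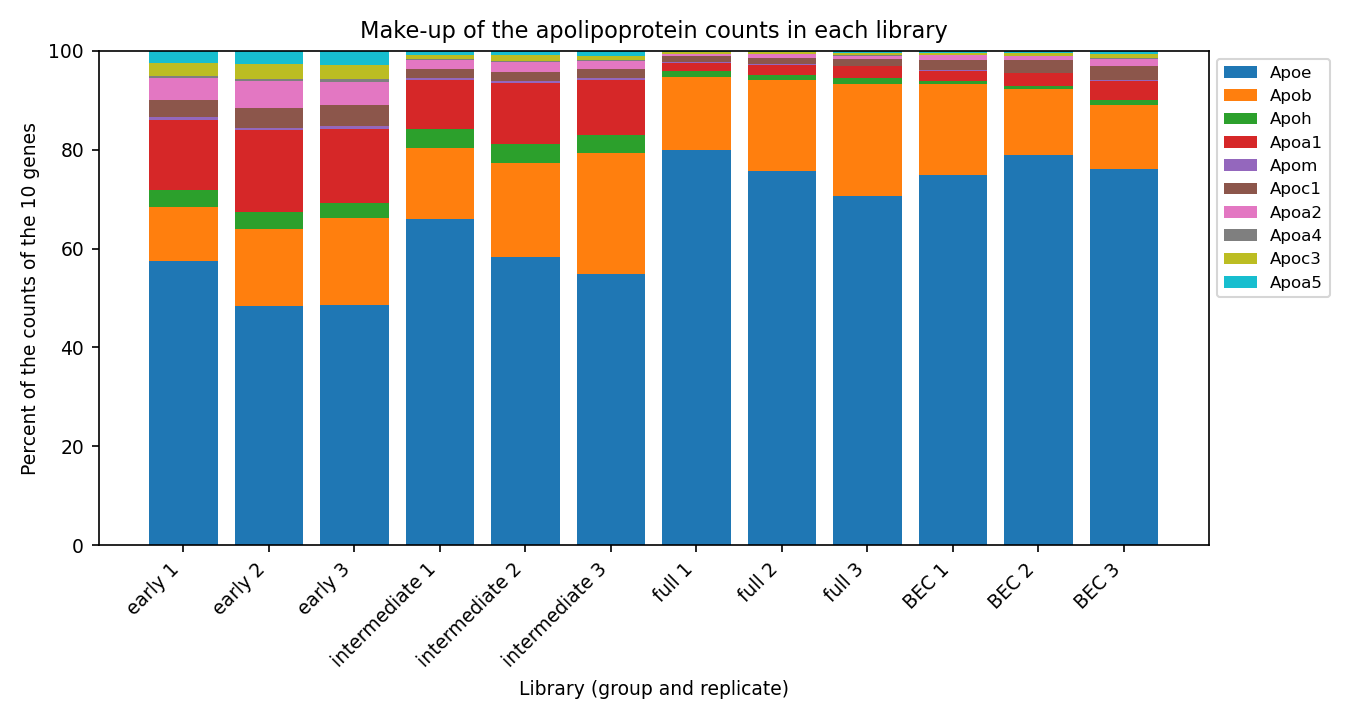
Bars show for each of the 12 libraries how the counts of the 10 genes divide among them, in percent. Apoe widens from 51.5% on average in early to 76.6% in BEC, and Apoa1 narrows from 15.2% to 2.88%.

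Between full cells and BEC, only Apob, Apoe and Apoh were called. edgeR called these 3 of 10 lower in BEC, against 10.6% of all genes called lower and 10.7% called higher. The same 3 were the only members whose libraries did not overlap, and the share of all genes without overlap was not counted. Apob had 430, 371 and 419 CPM in BEC, a log2 fold change of -1.13 (SE 0.22, edgeR adjusted p = 0.00179). Apoe had 1735, 2215 and 2454 CPM, a log2 fold change of -0.76 (SE 0.17, edgeR adjusted p = 0.0058). Apoh had 14.1, 17.1 and 28.2 CPM, a log2 fold change of -1.44 (SE 0.22, edgeR adjusted p = 0.000367). The labelled full cells thus held more of these 3 transcripts than unlabelled BEC, and Apoh, which had kept 27.2% in intermediate, was down to 0.991 ± 0.373% of early.

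For the other 7 genes no difference was called. Apoa1, for example, was at 48.1, 75.6 and 125 CPM in BEC, around the full values, with a log2 fold change of -0.24 and a 95% confidence interval from -0.78 to 0.31. Apoc1 stood at 48.5, 69.6 and 93.8 CPM (0.19, interval from -0.20 to 0.57). BEC replicate 3 was the highest of its group for 9 of the 10 genes, all but Apob. Without it, edgeR called 6 of 10 lower, adding Apoa1 (-0.66, adjusted p = 0.0320), Apoc3 (-0.67, adjusted p = 0.0406) and Apom (-1.09, adjusted p = 0.00174). Over the fits that each left out 1 library, 1360 to 1925 of all genes were called lower in this comparison, against 1718 with all libraries. Apom, at 5.70 ± 0.675 CPM in full and 3.60 ± 1.60 CPM in BEC, had a log2 fold change of -0.66 with all libraries (edgeR adjusted p = 0.0731). A replicate block made it a call (-0.68, adjusted p = 0.0172), as did DESeq2 (-0.65, adjusted p = 0.0336) and a fit without a filter on low counts (-0.69, adjusted p = 0.00186).

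From early to BEC, the whole distance, all 10 genes were lower, and 10 of 10 were called by edgeR, against 33% of all genes called lower and 40% called higher. What remained in BEC fell into a few levels. Apoe kept 7.01 ± 1.20% of its early level, Apob 4.77 ± 0.369% and Apoc1 3.14 ± 1.01%, and their libraries did not overlap in that order. The other 7 kept between 0.929% (Apoa4) and 1.15% (Apom), and each overlapped the next. In full cells Apoe kept 11.9 ± 1.54% and Apob 10.5 ± 2.74%, overlapping each other, while Apoc1 kept 2.76 ± 0.335%, Apoh 2.69 ± 0.631% and Apom 1.82 ± 0.215%. The remaining 5, Apoa4, Apoa5, Apoa2, Apoa1 and Apoc3, had already reached 0.984% to 1.17% there.

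This level near 1% was shared with other hepatocyte genes. In BEC, Pck1, an enzyme of gluconeogenesis, kept 0.990 ± 0.390% of its early level, Serpinc1, which encodes antithrombin, 1.04 ± 0.406%, the receptor gene Asgr1 1.10 ± 0.484%, Cyp2e1 1.27 ± 0.334% and Cps1, of the urea cycle, 1.28 ± 0.720%. Of 2411 genes with at least 100 CPM in early, a limit set after the data were seen, none kept under 0.5% in full or BEC, and the lowest kept 0.691% and 0.783%. The library order was shared as well, since Cps1 kept 0.658%, 1.12% and 2.07% in BEC replicates 1, 2 and 3. Whether RNA of early-like cells carried over in sorting supplies this common level was not tested. Apoc1, Apob and Apoe lay above it in BEC, as did Alb at 2.25 ± 0.317%, the transcription factor gene Hnf4a at 11.4 ± 1.91% and Ambp, which encodes a plasma protease inhibitor, at 23.7 ± 1.95%.

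Macrophages, which also make Apoe, were followed by their markers. The sum of 11 macrophage markers was 27.9 ± 1.72 CPM in early, 38.2 ± 6.26 in intermediate, 82.2 ± 16.4 in full and 152 ± 17.2 in BEC. Csf1r supplied most of that rise, from 3.94 ± 0.157 to 127 ± 6.69 CPM, whereas Adgre1, which encodes F4/80, averaged 0.135 to 0.522 CPM across the groups. All 11 were detected in each group. Of 10 macrophage genes tested, edgeR called 1 lower and 1 higher at the first step (list median 0.10 on the log2 scale). It called 0 lower and 1 higher at the second (0.39), and 0 and 2 between full and BEC (0.84). The part of macrophages in the Apoe values was not tested.

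Other apolipoprotein genes, listed together with Apobr, a receptor for Apob known from macrophages, moved with the 10 in part. Of 13 listed, 11 were tested, and edgeR called 9 lower and 1 higher at the first step (list median -1.90 on the log2 scale), 7 lower and 1 higher at the second (-1.08) and 3 lower and 1 higher between full and BEC (-0.36). Apoc4, which lies next to Apoc1, fell from 332 ± 44.2 to 39.7 ± 2.54 and 6.64 ± 2.09 CPM in early, intermediate and full. Apof, an inhibitor of lipid transfer between particles, fell from 755 ± 65.8 to 122 ± 5.59 and 18.6 ± 5.00 CPM. Clu, which encodes clusterin or apolipoprotein J, went the other way at the first step, from 8252 ± 965 to a mean of 25403 CPM (range 23015 to 29310). That is a log2 fold change of 1.62 (SE 0.17, edgeR adjusted p = 2.11e-06). It then stood at 25076 ± 3323 in full and 23231 ± 3048 CPM in BEC, and neither later difference was called. The receptor gene Apobr was the 1 gene called higher at the second step and between full and BEC, so no apolipoprotein of the list was called higher there. Its second-step change of 2.37 (edgeR adjusted p = 0.0242) was not called without intermediate replicate 2 (2.11, adjusted p = 0.0905), intermediate replicate 3 (2.34, adjusted p = 0.0678), full replicate 1 (1.74, adjusted p = 0.113) or full replicate 2 (2.29, adjusted p = 0.0590). It was at 0.925 ± 0.705 CPM in full and 6.79 ± 1.28 CPM in BEC (log2 fold change 2.86, edgeR adjusted p = 0.00145).

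**Figure D5:**
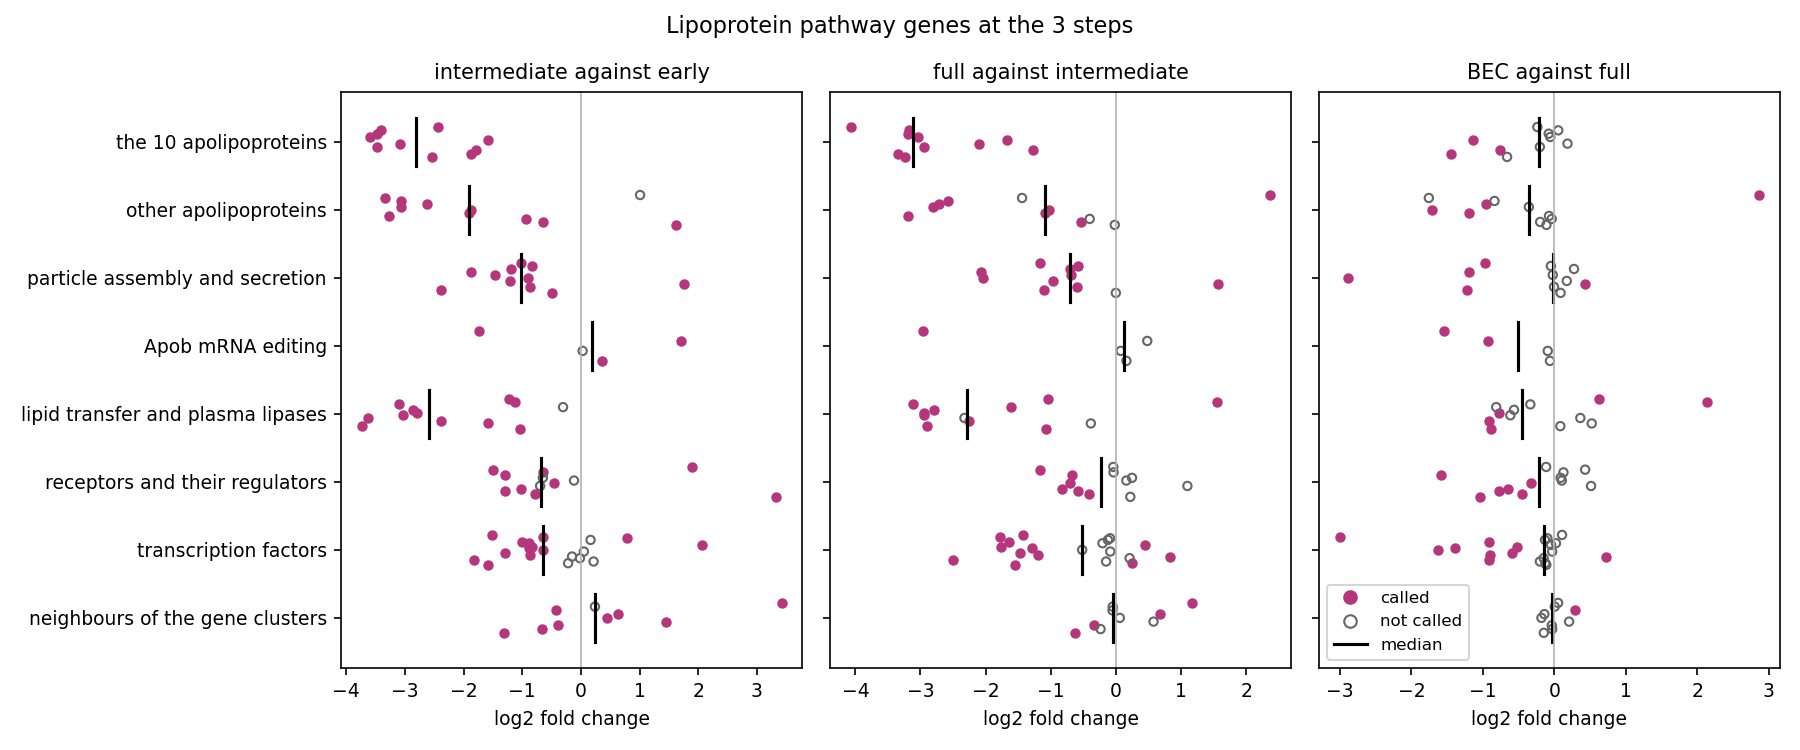
Log2 fold changes of the 10 apolipoproteins and of 7 lists of pathway and neighbour genes are shown at the 3 steps, with filled points for genes called by edgeR, open points for the rest and a line for the median of each list. The medians of the 10 are -2.81, -3.11 and -0.22.

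Most genes that assemble and secrete Apob particles fell at both steps. Of 11, edgeR called 10 lower and 1 higher at the first step (list median -1.02 on the log2 scale), 9 and 1 at the second (-0.70), and 4 and 1 between full and BEC (-0.02). Mttp, the transfer protein that loads lipid onto Apob, fell by 1.87 at the first step and 2.08 at the second on the log2 scale, from 398 ± 24.8 to 109 ± 14.8 and 25.7 ± 3.73 CPM, and by a further 1.19 to 11.2 ± 2.12 CPM in BEC. Tm6sf2, which takes part in VLDL lipidation, fell by 2.39 and 1.11. Pla2g12b, also needed for VLDL secretion, was at 79.5 ± 17.6, 42.4 ± 5.55, 10.3 ± 2.10 and 1.38 ± 0.682 CPM, and its first-step change of -0.91 (edgeR adjusted p = 0.00256) was not called on total counts (-0.24, adjusted p = 0.326). The gene that rose was Sort1, which encodes the sorting receptor sortilin, from 20.0 ± 0.224 to 67.9 ± 15.6 and 201 ± 16.5 CPM (log2 fold changes 1.76 and 1.57, edgeR adjusted p = 2.12e-07 and 9.37e-07).

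The factors that edit Apob mRNA diverged. Apobec1, the cytidine deaminase, rose by 1.70 on the log2 scale at the first step, from 14.8 ± 5.12 to 48.2 ± 11.1 CPM (edgeR adjusted p = 1.25e-05). Its cofactor A1cf fell by 1.73 and 2.96 at the 2 steps, from 178 ± 23.3 to 53.7 ± 14.1 and 6.88 ± 2.87 CPM. In full, Apobec1 was at 67.2 ± 3.50 CPM, a change of 0.48 that was not called (edgeR adjusted p = 0.0630) but was called with the replicate block (0.51, adjusted p = 0.00891). DESeq2, total counts, median-of-ratios factors, no filter on low counts, the compared libraries alone and the fits without early replicate 1, early replicate 2 or intermediate replicate 1 called it too (0.47 to 0.68). Of the 4 genes listed, 1 was called lower and 2 higher at the first step, 1 and 0 at the second, and 2 and 0 between full and BEC. Editing itself cannot be read from gene counts.

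Genes of lipid transfer proteins and plasma lipases were also mostly lower. Of 12, edgeR called 11 lower and 0 higher at the first step (list median -2.59 on the log2 scale), 9 and 1 at the second (-2.29), and 3 and 2 between full and BEC (-0.45). Abcg1, a cholesterol exporter, changed by -1.13 at the first step (edgeR adjusted p = 0.00477), which was not called on total counts (-0.47, adjusted p = 0.167). It was the gene that rose at the second step, from 1.22 ± 0.389 to 3.58 ± 0.870 CPM, and it rose again to 15.7 ± 2.37 CPM in BEC (log2 fold changes 1.55 and 2.14, edgeR adjusted p = 0.00043 and 1.65e-05).

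Receptors that take up Apob and Apoe particles were divided. Of 13, 12 were tested, and edgeR called 7 lower and 2 higher at the first step, 6 and 0 at the second, and 6 and 0 between full and BEC, with medians of -0.67, -0.23 and -0.22. Lrp1, the remnant receptor, fell by 1.29, 0.68 and 1.58 on the log2 scale at the 3 steps, from 1190 ± 117 CPM in early to 102 ± 22.8 CPM in BEC. Vldlr, a receptor for triglyceride-rich particles that binds Apoe, rose by 3.32 at the first step, from 8.53 ± 2.41 to 85.3 ± 4.49 CPM (edgeR adjusted p = 1.93e-09).

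Transcription factor genes of the hepatocyte, several of them known to act on apolipoprotein genes, were called in both directions. Of 20, 19 were tested, and edgeR called 11 lower and 2 higher at the first step, 9 and 3 at the second, and 8 and 1 between full and BEC, with medians of -0.65, -0.52 and -0.15. Hnf4a went from 1141 ± 38.5 to 638 ± 49.6 and 187 ± 11.3 CPM, which are log2 fold changes of -0.84 and -1.77 (edgeR adjusted p = 4.60e-05 and 1.96e-07). The first of these was not called on total counts (-0.17, edgeR adjusted p = 0.196). Ppara, a nuclear receptor of fatty acid metabolism, fell by 1.83 and 2.50. Creb3l3, which is known to act on Apoa4, Apoa5 and Apoc3 among others, was at 414 ± 32.3, 264 ± 9.63, 77.0 ± 7.39 and 9.58 ± 0.820 CPM. Its first-step change of -0.65 (edgeR adjusted p = 7.06e-05) turned to 0.01 on total counts, and its further falls were 1.78 and 3.01. Whether these factors account for any change of the apolipoproteins was not tested.

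Other secreted plasma proteins of the hepatocyte were lower as well. All 12 listed genes were called lower at both steps, with median log2 fold changes of -2.06 and -2.21, and 10 of 12 between full and BEC (-0.85). At the first step they ran from -0.93 (Ambp) to -3.81 (Orm1), against -1.59 to -3.60 for the 10 apolipoproteins, and at the second from -0.79 (Ambp) to -3.55 (Serpinc1), against -1.28 to -4.07. Alb fell by 2.54 and 2.29 on the log2 scale, which lies between the values of Apoa5 and of Apob at each step. Ahsg, which encodes fetuin-A, fell by 1.11, 2.12 and 2.85 at the 3 steps. Ambp went from 4327 ± 549 to 2278 ± 59.5 and 1320 ± 103 CPM, falls of 0.93 and 0.79. The first of these was not called on total counts (-0.26, edgeR adjusted p = 0.0522). Between full and BEC, Ambp had -0.36 (edgeR adjusted p = 0.0422), a call lost with median-of-ratios factors (adjusted p = 0.0512) and without any 1 of intermediate replicate 1, 2 or 3, full replicate 1 or 3, or BEC replicate 1 or 2 (-0.37 to -0.31, adjusted p = 0.0519 to 0.147). Alb had -0.64 there (edgeR adjusted p = 0.0133), and its call was lost without full replicate 3 (-0.49, adjusted p = 0.0752) or BEC replicate 2 (-0.55, adjusted p = 0.0718).

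Genes beside the 2 clusters were called in both directions. Of 9 listed neighbours, edgeR called 4 lower and 4 higher at the first step, 2 and 2 at the second, and 0 and 1 between full and BEC. Zpr1, which adjoins Apoa5, fell by 1.31 and 0.64 on the log2 scale, from 138 ± 9.30 to 55.5 ± 4.63 and 35.7 ± 0.520 CPM. Tomm40, which adjoins Apoe, changed by -0.66 at the first step (edgeR adjusted p = 0.000142), a value that became 0.00214 on total counts. Farther from Apoe, Bcam, a laminin receptor of epithelia, rose by 3.42 and 1.17, from 14.4 ± 2.83 to 154 ± 15.6 and 347 ± 26.0 CPM, and Nectin2, an adhesion molecule, rose by 0.64 and 0.67.

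Over the 12 libraries, the genes whose log2 CPM correlated most closely with Apoa5, which kept the least in intermediate, were Mat1a (Pearson r = 0.999), Haao (r = 0.999) and Ass1 (r = 0.999). Mat1a makes S-adenosylmethionine, Haao belongs to tryptophan breakdown and Ass1 to the urea cycle. For Apob, which kept the most, they were Gm44250 (r = 0.996), Gk (r = 0.996), which encodes glycerol kinase, and Inhbe (r = 0.995), which encodes an inhibin subunit. These values describe a pattern over 4 groups that share their libraries, and the 16210 genes were searched for the highest. In the GENCODE M21 annotation, Apoa4, Apoa5 and Apoh overlap other genes on the opposite strand (Gm10680 and Gm47528, Gm47544, and Prkca), and the use of strand in counting is not given in the sources used here, so their counts are less certain.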

How the data were processed

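For 12 libraries, the deposited count table gives raw counts by gene symbol. A second deposited table gives signal, the same counts over 1 size factor per library, and was only checked. STAR 2.7.10b, featureCounts 2.0.1, DESeq2 and GRCm39 are named per the submitters' processing notes. Annotation and strand are not given in the sources used here. There were 0 unmapped columns and 0 rows without a gene name.

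Genes were kept by filterByExpr. All libraries entered 1 fit of edgeR 4.0.16 in R 4.3.3 (TMM factors, quasi-likelihood test, Benjamini-Hochberg adjusted p under 0.05 over 16210 genes, common biological coefficient of variation 14.8%). The code was also run on simulated counts in which 200 genes changed in intermediate, as many up as down. Far more genes were called in these data, so that run does not test the scaling used here. CPM use TMM-scaled totals, and correlations log2 CPM with a prior count of 2. Percents of early divide each library by the early mean. Counting intervals were not needed, since every value has replicates. Depths were alike, and the limit of 3 counts lay at 0.128 to 0.273 CPM.

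The members and the lists (other apolipoproteins, particle assembly, Apob editing, lipid transfer and lipases, receptors, transcription factors, plasma proteins, cluster neighbours, cell markers) were chosen with earlier results of these data known. All 10 members are named, any list gene could be (values of some are not reported here), and correlated genes are the 3 highest outside the members. The summed CPM of the remaining marker lists, early to BEC, were 209, 109, 59.5 and 70.2 (stellate cell and fibroblast), 18.3, 10.9, 3.22 and 4.15 (endothelial) and 24.4, 2.63, 0.571 and 0.819 (erythroid), and those of B cell, T and NK cell and neutrophil genes averaged at most 0.219. The erythroid sum was nearly all Alas2, at 24.3, 2.47, 0.571 and 0.819 CPM. Hba-a1, Hbb-bs and Hbb-bt averaged at most 0.119 CPM in any group. Alternatives were DESeq2 1.42.0, other scaling, other filters, a replicate block, fits of the compared libraries alone and each library left out.

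Same-numbered libraries deviated together, with r across genes from 0.121 to 0.293 for early and intermediate, 0.137 to 0.322 for intermediate and full and 0.170 to 0.257 for full and BEC. For early and BEC, r was 0.0442 to 0.145. Libraries of different numbers were not compared in this way, so whether the numbers pair libraries was not tested. The main fit held group only, and the replicate block was run as an alternative. What a number marks is not given in the sources used here. Replicates differed beyond counting error.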

Additional observations from a re-analysis of the deposited data

How the results depend on the processing

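All 10 genes were called lower at the first step, at the second step and from early to BEC under each alternative run, the fits that left out 1 library included. The count of genes called between full and BEC was 3, and 3 to 6 with 1 library left out, and the count called between steps was 3, and 1 to 3. The replicate block changed no other call of the 10 than that of Apom between full and BEC (-0.68). Against the 3 within-number differences, the smallest p of the exact sign-flip test of the summed share is 0.25.

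Scaling by total counts moved the all-gene median to 0.72 at the first step, 0.21 at the second, 1.004 from early to BEC and -0.54 between steps, on the log2 scale. Of all genes called, the share called higher became 85.6% in place of 52.8% at the first step, 72.6% in place of 51.2% at the second, 80.3% in place of 54.8% from early to BEC and 7.17% in place of 34.3% between steps. Genes called lower and higher were then 1623 and 9626 in place of 4159 and 4658, 1976 and 5236 in place of 3214 and 3376, 2624 and 10669 in place of 5351 and 6491, and 5699 and 440 in place of 1750 and 915. DESeq2 called 1503 higher between steps, and leaving out 1 library 476 to 970.

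Changes of sign were limited to values that were not called, apart from Creb3l3 (0.0139) and Tomm40 (0.00214) at the first step on total counts. Between steps they were Apoa2 (-0.24) and Apoa4 (-0.19) on total counts and Apob with DESeq2 (0.00941) and median-of-ratios factors (0.00940). Clu at the second step became 0.0201 with DESeq2, 0.0201 with median-of-ratios factors, 0.18 on total counts and 0.00579 with a mean of at least 50 counts. With 1 library left out, the ranges were -0.66 to 0.0363 (Apoa1), -0.35 to 0.28 (Apoa2), -0.73 to 0.30 (Apoa4), -0.52 to 0.20 (Apoa5), -0.0747 to 0.39 (Apoc1) and -0.67 to 0.0636 (Apoc3) between full and BEC, -0.12 to 0.50 (Apoa4) and -0.43 to 0.41 (Apob) between steps, and -0.13 to 0.10 for Clu at the second step. The cause was not tested.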
